A study of Mus musculus with 6 samples.

Results

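The RNA of C2C12 myotubes given 30 µg/mL of sugarcane top ethanolic extract (STEE) for 6 h was compared with the RNA of untreated myotubes. The comparison took in 4 of the 6 arrays of the series, all those named for this concentration and for the untreated cells. They were 2 arrays of the treated group (STEE30-M) and 2 of the untreated control (Ctrl-M), and the other 2 arrays (STEE50-M, 50 µg/mL) entered the same statistical fit. Total RNA was measured on Clariom S Mouse arrays, on which a probe set is a group of short probes read as 1 log2 signal. C2C12 is a mouse myoblast line that stops dividing and fuses into contractile myotubes in low horse serum, and all 3 groups were differentiated for 6 days. The extract was given in serum-free Opti-MEM. The labels call the control untreated and say that its RNA was taken on the same schedule, but not whether it received the change of medium or the ethanol in which the extract was stocked. If it did not, extract, medium and solvent cannot be told apart. The cells are 1 line, and the sources differ on whether the 2 arrays of a group were separate cultures, so a p-value here measures no more than the spread of these arrays, which may be technical.

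Sugarcane tops are rich in polyphenols, among them caffeoylquinic and feruloylquinic acids and the flavone glycoside isoorientin. The question behind the comparison was whether the extract acts on the transcripts of mitochondrial and energy metabolism in muscle cells. In skeletal muscle, PGC-1α (gene Ppargc1a) is a coactivator that works with nuclear receptors and with the NRF and ERR factors to raise transcription of respiratory chain and fatty acid oxidation genes. Myotubes are built around the sarcomere, whose actin and myosin filaments slide when calcium is released from the sarcoplasmic reticulum, and they burn glucose and fatty acids to restore the ATP this uses. Plant polyphenols are also known to reach the xenobiotic and antioxidant responses, which run through the aryl hydrocarbon receptor and NRF2.

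The arrays were alike. Correlations over all probe sets lay between 0.991 and 0.994 for every pair, and array medians between 5.70 and 5.77. All 12 myotube markers were above background, and their mean log2 signal was 13.80 and 14.22 on the STEE30-M arrays and 13.79 and 13.96 on the Ctrl-M arrays. Of the markers of other cell types, 11 of 12 for myoblasts and reserve cells and 7 of 9 for fibroblasts were above background, against 2 of 11 for leukocytes, 2 of 8 for endothelium, 1 of 10 for neurons and glia, and none of 8 for adipocytes and none of 8 for hepatocytes. Background here is the 95th percentile of the signals of 1448 probe sets for odour, pheromone and taste receptors, which are best known from sensory epithelia although Olfr16 is also known from differentiating muscle cells, and it stood at a log2 signal of 5.32. Of 22206 probe sets, 12055 (54.3%) lay above it.

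At 30 µg/mL few transcripts stood apart from the control, and those that did were mostly dim. The thresholds of the study were an unadjusted p below 0.05 together with a fold of 1.2 or more, read here as linear. At these thresholds 909 probe sets (4.09%) passed in limma, 452 higher (2.04%) and 457 lower (2.06%) in STEE30-M. An unadjusted p under 0.05 alone would be reached by about 1110 of 22206 unchanged probe sets, and the same 909 had it here. After Benjamini-Hochberg adjustment none was left at 0.05, in limma or under any alternative run, and the lowest adjusted p was 0.998, so every gene named below as higher or lower failed the correction. The median log2 difference over all probe sets was -0.01 and the median 95% interval reached 0.55 to either side, which leaves changes of up to about that size undecided for a typical gene. The replicates of STEE30-M differed more from each other than those of Ctrl-M, with a median SD of 0.19 in STEE30-M and 0.15 in Ctrl-M. Single arrays moved the count: 1503 probe sets passed without replicate 1 of STEE30-M (662 higher, 841 lower), 1243 without its replicate 2 (695 higher, 548 lower), 616 without replicate 1 of Ctrl-M (317 higher, 299 lower) and 808 without its replicate 2 (366 higher, 442 lower). In 6717 probe sets (30.2%) both STEE30-M arrays lay above (14.5%) or below (15.8%) both Ctrl-M arrays. They included 905 of the 909 that passed, so a lack of overlap in a gene that passed adds little to its call.

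The share of probe sets past the thresholds depended on how bright they were. It was 5.60% for a mean log2 signal up to 4, 7.05% between 4 and 5, 6.06% between 5 and 6, 4.28% between 6 and 8, 1.57% between 8 and 10, and 0.398% between 10 and 12. Above 12, where the abundant transcripts of the myotube lie, none of 2196 probe sets passed, and none had an unadjusted p under 0.05 in limma. The largest log2 difference among these was 0.63 in size, and the median size was 0.09. With a variance prior that follows the signal 13 of the 2196 passed, and 15 did in the methods' unmoderated test or without replicate 1 of STEE30-M. Direction moved with brightness as well. Above background 275 of 12055 probe sets passed (2.28%), 106 higher and 169 lower, whereas among those with a signal up to 4 there were 160 higher and 108 lower. Without replicate 1 of STEE30-M 543 of those above background passed (252 higher, 291 lower), and on the scale of the authors' averages 125 (51 higher, 74 lower). Without replicate 2 of Ctrl-M the lean of the dimmest turned to 111 higher and 127 lower.

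**Figure D1:**
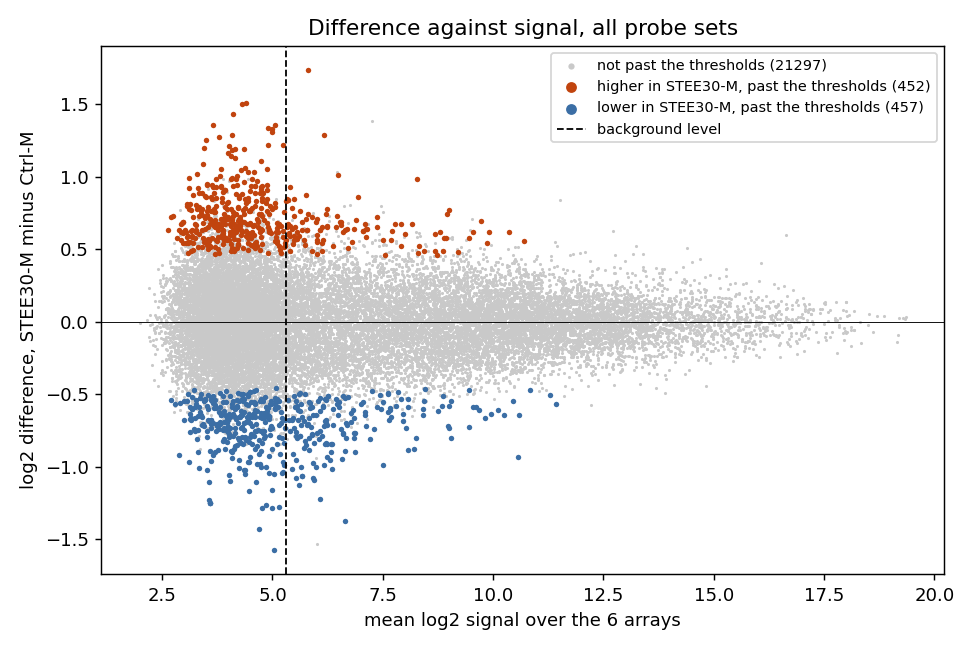
Log2 difference STEE30-M minus Ctrl-M (vertical axis) against the mean log2 signal over the 6 arrays (horizontal axis) for all 22206 probe sets, with the 452 higher and 457 lower ones that passed the thresholds coloured and the background level of 5.32 dashed. The coloured points thin out to the right and end before a signal of 12.

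**Figure D2:**
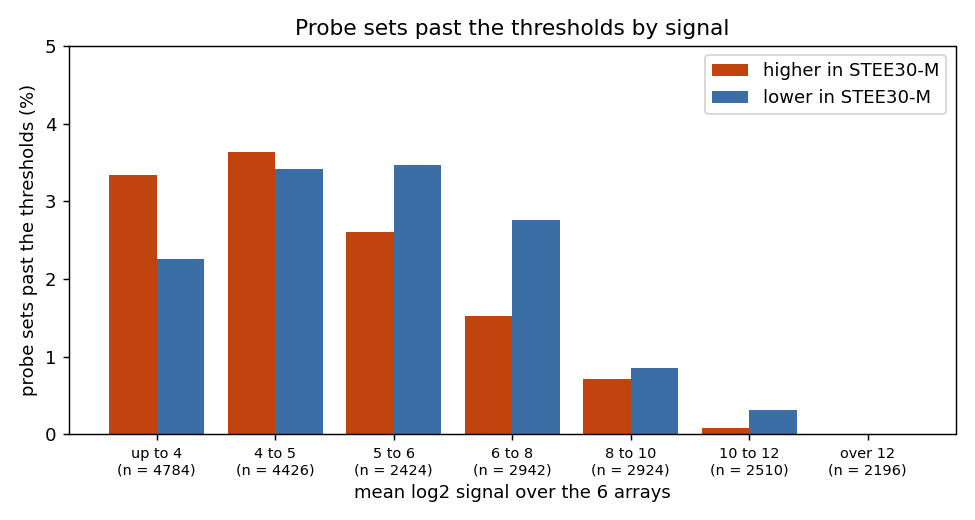
Share of probe sets past the thresholds, in percent, for 7 classes of mean log2 signal, higher (left bar) and lower (right bar) in STEE30-M. The share higher exceeds the share lower up to a signal of 5 and falls below it from 5 upwards, and both are 0 above 12.

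The chemosensory receptors that set the background level were themselves called more often than other dim probe sets. Of 1448, 93 were higher and 44 lower in STEE30-M (9.46%), against 258 higher and 247 lower of 8776 other probe sets at or below background (5.75%). The receptors share sequence within their families, so these probe sets do not vary independently. Among 1096 olfactory receptors 67 were higher and 34 lower, among 190 vomeronasal type 1 receptors 19 and 8, and among 124 type 2 receptors 6 and 1. Their mean signal was 4.06 and 4.01 on the STEE30-M arrays and 4.02 and 3.92 on the Ctrl-M arrays, so that the groups overlapped. In the methods' unmoderated test the share was 3.94% of the receptors (38 higher, 19 lower), close to the 4.24% of the other dim probe sets, and without replicate 2 of Ctrl-M the receptors split into 61 higher and 58 lower.

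Ucn, Mgst2, Bcl3, Ttc39c and Mlycd were among the 15 genes with the largest positive moderated t. All 15 were chosen for a mean over the 6 arrays above background and for groups without overlap. A gene could thus clear that level through its treated arrays, and the lack of overlap is no result. Ucn (chr5:31137989-31138895, GRCm38 for this and all positions below) encodes urocortin, a peptide of the corticotropin-releasing hormone family. It read 6.04 and 5.92 in STEE30-M and 5.28 and 5.16 in Ctrl-M, a difference of 0.76 (SE 0.22). Mgst2 (chr3:51636912-51682675) encodes a microsomal glutathione transferase that also makes leukotriene C4, and it read 7.49 and 7.38 in STEE30-M and 6.79 and 6.74 in Ctrl-M, a difference of 0.67 (SE 0.20). In both genes the replicates lay close together, and both Ctrl-M arrays of Ucn were below the background level. The unadjusted limma p was 0.00699 for Ucn and 0.00883 for Mgst2. Bcl3, an IκB family member that acts in the nucleus with NF-κB subunits, read 5.83 and 6.04 in STEE30-M and 5.41 and 5.09 in Ctrl-M (difference 0.69, SE 0.22). Ttc39c (chr18:12583103-12739404), a tetratricopeptide repeat protein, read 8.44 and 8.38 in STEE30-M and 7.92 and 7.56 in Ctrl-M (difference 0.67, SE 0.22). Fam35a, which encodes a subunit of the shieldin complex of DNA break repair, read 8.43 and 8.35 in STEE30-M and 7.63 and 7.81 in Ctrl-M (difference 0.67, SE 0.21). Of these 5 genes, Bcl3 and Ucn lay close to the background level and Ttc39c and Fam35a well above it. The Ctrl-M reading of 5.09 in Bcl3 was under that level.

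A pair of lipid enzymes was among the same 15. Mlycd encodes malonyl-CoA decarboxylase, which removes the malonyl-CoA that holds back fatty acid entry into mitochondria, and it read 6.80 and 6.76 in STEE30-M and 6.03 and 6.08 in Ctrl-M. Dgat2, which catalyses the last step of triglyceride synthesis, read 5.83 and 5.69 in STEE30-M and 5.07 and 5.15 in Ctrl-M, so its control arrays were under the background level. Neither gene's groups overlapped, as the choice of the 15 required. Of the remaining 8, 4 were chemosensory receptors (Olfr1044, Olfr1155, Olfr701 and Vmn2r36), and the others were the keratin-associated protein gene Krtap6-3, the testis histone gene H2afb1 and the predicted genes Gm10941 and Gm10340. Their differences ran between 0.72 (H2afb1) and 1.74 (Vmn2r36). In Olfr701, Olfr1155 and Gm10941 both Ctrl-M arrays were below the background level. In Olfr1044, Vmn2r36 and Gm10340 the lower Ctrl-M array was.

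The 15 genes with the largest negative t, chosen by the same rule, held more genes of middling signal. Rev3l (chr10:39731561-39875211) encodes the catalytic subunit of DNA polymerase zeta, which copies past damaged bases, and it read 8.72 and 8.32 in STEE30-M and 9.43 and 9.22 in Ctrl-M, a difference of -0.81 (SE 0.23). Tmem176b (chr6:48833811-48845948), a membrane protein gene known from dendritic cells, read 5.89 and 5.88 in STEE30-M and 7.02 and 6.62 in Ctrl-M (difference -0.94, SE 0.25). Pir (chrX:164269431-164373013) encodes pirin, an iron-binding nuclear protein and a known NRF2 target, and it read 5.52 and 5.57 in STEE30-M and 6.23 and 6.42 in Ctrl-M (difference -0.78, SE 0.22). In all 3 genes both STEE30-M arrays lay below both Ctrl-M arrays, as the choice required. The unadjusted limma p was 0.00627 for Rev3l, 0.00493 for Tmem176b and 0.00641 for Pir. Serpinb6c, a serine protease inhibitor of the ovalbumin type, read 6.14 and 6.51 in STEE30-M and 7.17 and 7.08 in Ctrl-M (difference -0.80, SE 0.22). Mtfr2, which promotes mitochondrial fission, read 5.66 and 6.04 in STEE30-M and 6.55 and 6.83 in Ctrl-M (difference -0.84, SE 0.23). Bcs1l, the chaperone that inserts the Rieske protein into respiratory complex III, read 7.65 and 7.80 in STEE30-M and 8.39 and 8.52 in Ctrl-M (difference -0.73, SE 0.20). The groups of Serpinb6c, Mtfr2 and Bcs1l did not overlap either, which the choice also required. The widest gap between replicates in this set was that of Gm6121, 5.93 and 4.97 in STEE30-M against 6.68 and 6.67 in Ctrl-M.

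**Figure D3:**
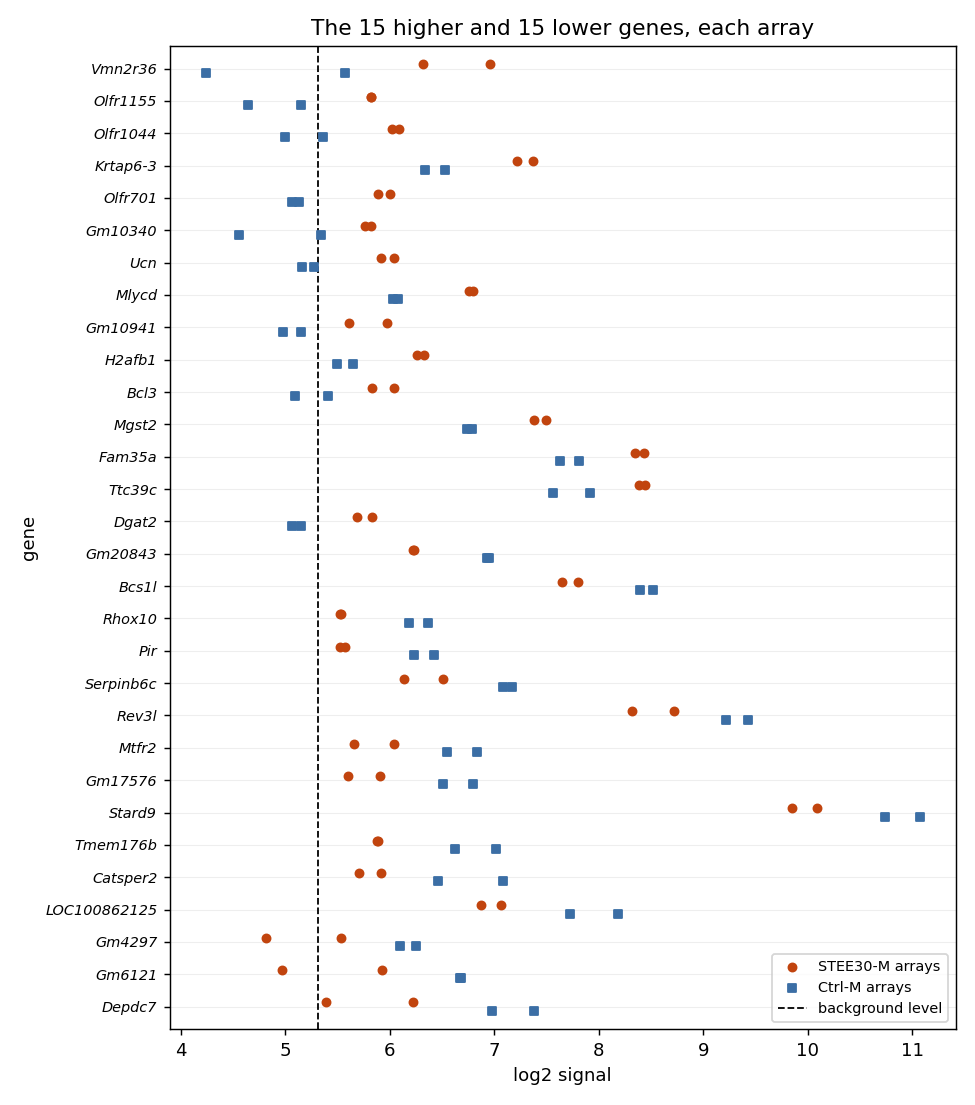
Log2 signal (horizontal axis) on each STEE30-M array (circles, upper) and Ctrl-M array (squares, lower) of 15 higher and 15 lower genes above background, those of largest moderated t, ordered by their difference, with the background level dashed. In every row the 2 groups are apart, as the choice of genes required, and most rows lie below a signal of 9, with Stard9 the brightest at 10.09 and 9.85 in STEE30-M against 10.74 and 11.07 in Ctrl-M.

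Most calls rested on all 4 arrays being present. Of the 909 probe sets, 101 (11.1%) passed the thresholds whichever of the 4 arrays was left out, 51 of them higher and 50 lower, and 25 of these 101 were above background. Pigc (chr1:161969188-161973460), Ccdc84 and Neu4 were in this set and outside the lists named so far, and they were picked after their values were seen. Pigc, an enzyme of the first step of GPI anchor synthesis, read 7.82 and 7.70 in STEE30-M and 8.47 and 8.42 in Ctrl-M (difference -0.69, SE 0.20). Ccdc84, a coiled-coil protein gene, read 6.06 and 6.27 in STEE30-M and 6.96 and 6.92 in Ctrl-M (difference -0.78, SE 0.22). Neu4, a sialidase gene, read 5.46 and 5.31 in STEE30-M and 6.05 and 6.15 in Ctrl-M (difference -0.72, SE 0.20). In each the replicates were close and the groups apart.

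Only 56 probe sets with a mean log2 signal over 8 passed the thresholds, 23 of them higher and 33 lower in STEE30-M. With the prior that follows the signal there were 108 (48 higher, 60 lower), in the methods' unmoderated test 130 (42 higher, 88 lower), without replicate 1 of STEE30-M 183 (109 higher, 74 lower), without its replicate 2 102 (24 higher, 78 lower), without replicate 1 of Ctrl-M 37 (23 higher, 14 lower), without its replicate 2 35 (17 higher, 18 lower), and on the scale of the authors' averages 14 (4 higher, 10 lower). The genes of this brightness described next, other than those already given, were picked after their values were seen. Upf3b (chrX:37091678-37110471), a factor of nonsense-mediated decay that binds the exon junction complex, read 9.69 and 9.76 in STEE30-M and 10.31 and 10.36 in Ctrl-M (difference -0.61, SE 0.22). Clk1 (chr1:58411988-58424088), a kinase of SR splicing factors, read 8.35 and 8.82 in STEE30-M and 9.32 and 9.31 in Ctrl-M (difference -0.73, SE 0.24). Luc7l3, a U1 snRNP-associated splicing factor, read 9.34 and 9.35 in STEE30-M and 9.90 and 9.96 in Ctrl-M (difference -0.59, SE 0.20). The replicates of Upf3b and Luc7l3 lay close together in both groups, and those of Clk1 only in Ctrl-M. Zc3h13, part of the RNA methyltransferase complex that makes m6A, read 9.72 and 9.28 in STEE30-M and 10.10 and 10.23 in Ctrl-M (difference -0.67, SE 0.24).

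Other genes of this brightness were also lower. Ap1s2 (chrX:163908454-163933666), a subunit of the AP-1 clathrin adaptor, read 10.49 and 10.62 in STEE30-M and 11.04 and 11.01 in Ctrl-M (difference -0.47, SE 0.21). Osbpl2, an oxysterol-binding lipid transfer protein, read 11.01 and 11.08 in STEE30-M and 11.39 and 11.71 in Ctrl-M (difference -0.51, SE 0.22). Bptf, the largest subunit of the NURF remodelling complex, read 10.22 and 9.69 in STEE30-M and 10.54 and 10.65 in Ctrl-M (difference -0.64, SE 0.24). The 3 genes were apart in the 2 groups, Bptf with the wider spread in STEE30-M. Slc39a7, a zinc transporter of the endoplasmic reticulum, read 10.42 and 10.17 in STEE30-M and 10.81 and 10.88 in Ctrl-M (difference -0.55, SE 0.22). Cracr2b, a calcium-binding regulator of store-operated calcium entry, was the brightest of all called genes, at 11.32 and 11.09 in STEE30-M and 11.89 and 11.66 in Ctrl-M (difference -0.57, SE 0.22).

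Among bright genes that were higher, Lman2 (chr13:55343833-55362783), a cargo lectin of the secretory pathway, read 10.77 and 11.23 in STEE30-M and 10.36 and 10.53 in Ctrl-M (difference 0.56, SE 0.24). Kat2a, the histone acetyltransferase GCN5, read 9.60 and 9.74 in STEE30-M and 9.38 and 8.81 in Ctrl-M (difference 0.58, SE 0.25). Ptn, the secreted growth factor pleiotrophin, read 8.84 and 8.82 in STEE30-M and 8.29 and 8.45 in Ctrl-M (difference 0.46, SE 0.20). None of these 3 overlapped between groups, and their unadjusted limma p lay close to the threshold, at 0.0486 for Lman2, 0.046 for Kat2a and 0.0487 for Ptn. Tgif2, a repressor in TGF-β signalling, read 9.10 and 9.52 in STEE30-M and 8.62 and 8.46 in Ctrl-M (difference 0.77, SE 0.26).

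**Figure D4:**
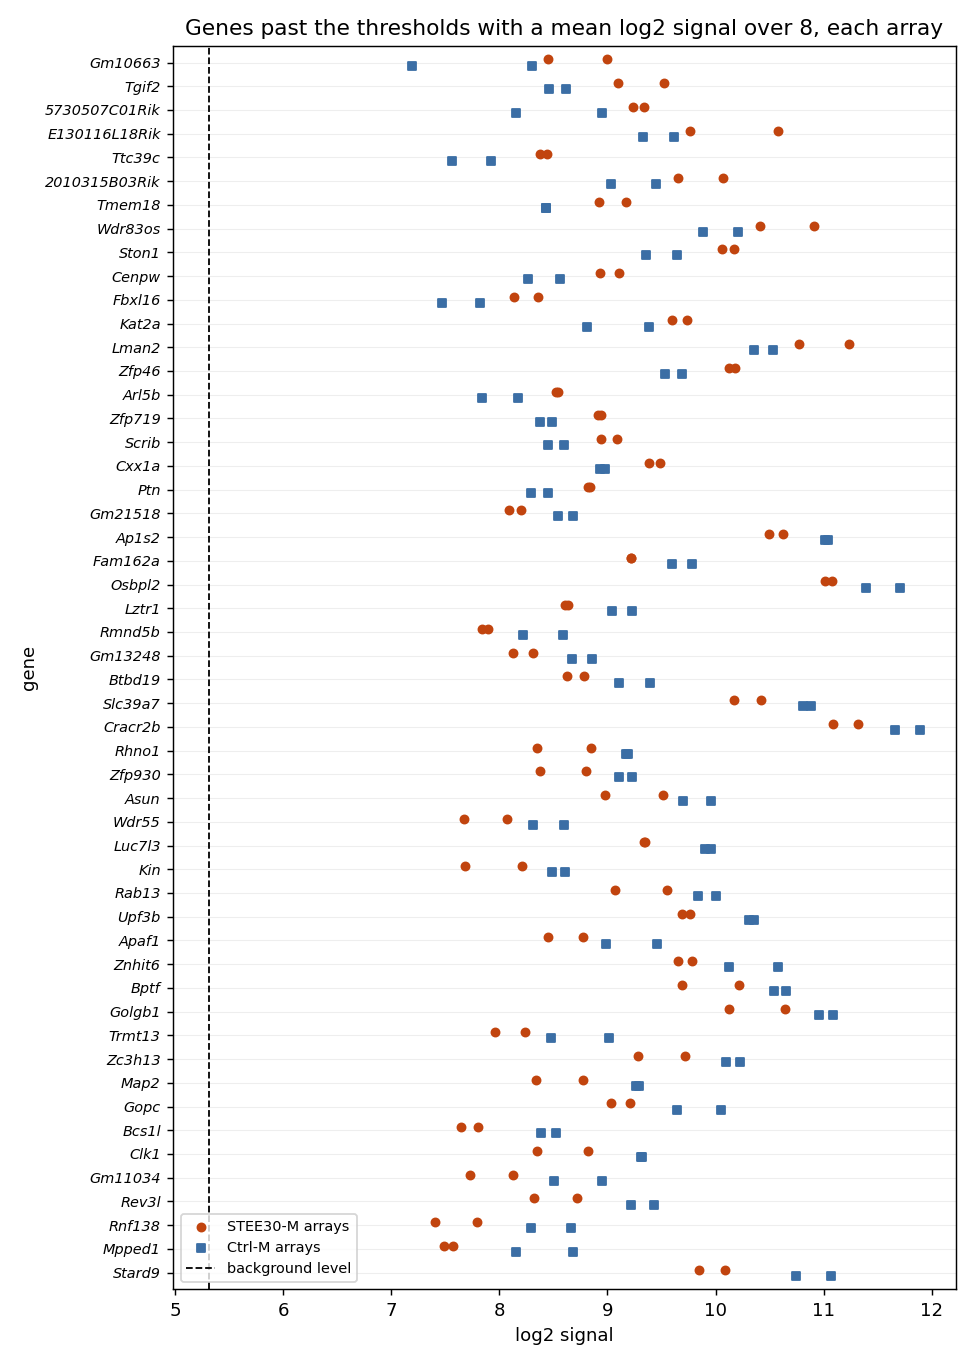
Log2 signal (horizontal axis) on each STEE30-M array (circles, upper) and Ctrl-M array (squares, lower) of genes past the thresholds with a mean log2 signal over 8, without probe sets that name several genes and 1 gene not reported here, ordered by their difference. Gm10663 at the top has the widest gap between its Ctrl-M arrays, 8.30 and 7.19, and Cracr2b at 11.32 and 11.09 in STEE30-M is the brightest.

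Probe sets of the Y chromosome were called more often than those of any autosome. Of 60 that were above background, 14 passed (23.3%), 2 higher and 12 lower, against 1.01% to 4.22% on the autosomes and 6.18% on the X chromosome (7 higher and 19 lower of 421). The 12 lower ones were Sly, a multicopy gene of spermatids, and predicted genes with Gm or LOC names, and 5 of the 12 name the same gene, Gm20736, so they share sequence and are not independent measurements. Near-identical copies on the X and Y chromosomes cannot be told apart by such probe sets. The 2 higher ones both name Gm20806 and read the same on every array, so they are not separate measurements. Sly read 5.16 and 5.02 in STEE30-M and 6.18 and 5.52 in Ctrl-M (difference -0.76, SE 0.25), and Gm20843 read 6.23 and 6.22 in STEE30-M and 6.95 and 6.93 in Ctrl-M (difference -0.72, SE 0.20). Over the 12, the difference ranged between -0.99 and -0.47, and in STEE50-M minus Ctrl-M the same probe sets ranged between -0.50 and 0.23. The 4 Y genes present in 1 copy, Ddx3y, Eif2s3y, Kdm5d and Uty, were all below background, with means between 2.58 and 5.00. Without the X and Y chromosomes, 235 of 11574 probe sets above background passed, 97 higher and 138 lower. The calls on the Y chromosome rested on single arrays, with 16 without replicate 1 of STEE30-M, 4 without its replicate 2, 2 without replicate 1 of Ctrl-M and 30 without its replicate 2, and the methods' unmoderated test made 3. With the replicate number as a block in the fit, 22 of the 60 passed, 3 higher and 19 lower. The Y genes were picked after their values were seen.

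The genes of contraction and of muscle identity showed next to no calls. Of 42 genes of the thick and thin filament 1 passed, Myot, which encodes the Z-disc protein myotilin. It was dim for this list and read 5.41 and 6.06 in STEE30-M and 6.49 and 6.65 in Ctrl-M (difference -0.84, SE 0.33). None passed among 25 genes of excitation-contraction coupling, 23 myogenic regulators and fusion genes and 20 of the dystrophin-glycoprotein complex. Nor did any of 15 genes of the neuromuscular synapse or of 21 atrophy and FoxO target genes. Over all 21154 genes 3.99% passed, but that share is not matched for brightness, and most of these genes were bright. Between a signal of 10 and 12 only 0.398% of all probe sets passed, and above 12 none of 2196. Acta1 and Myh3 stand for the abundant sarcomere genes. Acta1, skeletal actin, read 17.31 and 17.62 in STEE30-M and 17.33 and 17.34 in Ctrl-M, and Myh3, the embryonic myosin heavy chain of new myotubes, read 16.90 and 16.94 in STEE30-M and 16.64 and 16.88 in Ctrl-M. The 95% interval of their differences was -0.43 to 0.69 for Acta1 and -0.39 to 0.71 for Myh3. Myod1, the master regulator of the lineage, came nearest to the threshold among the myogenic factors, at 9.10 and 9.62 in STEE30-M and 8.84 and 8.88 in Ctrl-M (difference 0.50, SE 0.23), while Myog, which drives differentiation, read 14.50 and 14.72 in STEE30-M and 14.59 and 14.55 in Ctrl-M.

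Of 25 regulators of mitochondrial biogenesis 1 passed the thresholds (4.0%, against 3.99% of all genes). Without overlap 8 lay below Ctrl-M and 1 above it, where over all probe sets 15.8% lay below and 14.5% above. Ppargc1a (chr5:51454249-52115853), PGC-1α itself, read 6.65 and 6.36 in STEE30-M and 6.20 and 6.43 in Ctrl-M. The groups overlapped, and the difference of 0.19 had a 95% interval of -0.30 to 0.68. Pparg, the nuclear receptor after which the coactivator is named, read 6.68 and 7.21 in STEE30-M and 7.40 and 6.89 in Ctrl-M, again with overlap, and its interval of -1.02 to 0.62 was wider. Ppargc1b, the close relative PGC-1β, was brighter and read 9.68 and 9.67 in STEE30-M and 9.22 and 9.48 in Ctrl-M (difference 0.33, SE 0.23). Tfam, which packages and transcribes mitochondrial DNA and was picked after its values were seen, read 8.81 and 9.03 in STEE30-M and 9.22 and 9.20 in Ctrl-M (difference -0.29, SE 0.21). Both pairs of groups were apart, in opposite directions, with neither difference past the thresholds. The 1 that passed was Rxrg, a retinoid X receptor, below background at 3.13 and 3.19 in STEE30-M and 3.71 and 3.70 in Ctrl-M. The median difference of the list was -0.10, beside -0.01 over all genes.

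Few genes of the respiratory machinery were called. No member passed among 36 subunits of complex I, 20 genes of ATP synthase, 74 mitochondrial ribosomal proteins and 31 genes of the TCA cycle and pyruvate entry. These lists lay almost wholly above background, where 2.28% of all probe sets passed. That share is not matched for brightness, since their array means ran between 8.76 (mitochondrial ribosomal proteins) and 13.24 (ATP synthase). Of all probe sets 1.57% passed between a signal of 8 and 10, 0.398% between 10 and 12, and none above 12. Complexes II and III had 1 of 24 (4.17%; Bcs1l, lower) and complex IV 1 of 34, the testis isoform gene Cox8c, which was below background on average, at 5.55 and 5.69 in STEE30-M and 4.94 and 5.25 in Ctrl-M. Of 35 genes for the upkeep and expression of the mitochondrial genome 2 passed (5.71%, against 3.99% of all genes), both higher. Mterf4 (chr1:93301205-93305879), which with an RNA methyltransferase serves the assembly of the mitochondrial ribosome, read 7.29 and 7.37 in STEE30-M and 6.67 and 6.71 in Ctrl-M (difference 0.64, SE 0.22). Polg2, the accessory subunit of the mitochondrial DNA polymerase, read 6.88 and 6.33 in STEE30-M and 5.93 and 5.80 in Ctrl-M (difference 0.74, SE 0.32). Mterf4 had close replicates in both groups and Polg2 had not. Of 27 genes of fusion, fission and mitophagy Mtfr2 alone passed. Among genes the study singles out for mitochondria, a choice that drew on these same arrays, 1 of 14 was higher (Mterf4) and 1 lower (Mtfr2). Sucla2, a subunit of succinyl-CoA ligase, read 6.92 and 6.38 in STEE30-M and 6.10 and 6.22 in Ctrl-M, and Mfn1, the outer membrane fusion GTPase mitofusin, read 10.91 and 11.07 in STEE30-M and 11.32 and 11.58 in Ctrl-M. Neither passed, although the groups of each were apart.

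Lipid metabolism had a few calls in both directions. In its lists not taken from the study, the share that passed lay between 0 and 5.56%, beside 3.99% of all genes. Of 36 genes of fatty acid oxidation 1 was higher, Mlycd, and 1 lower, Acad10, a member of the acyl-CoA dehydrogenase family that read 5.70 and 5.70 in STEE30-M and 6.31 and 6.26 in Ctrl-M (difference -0.59, SE 0.20). In both genes the replicates were close. Of 26 genes of fatty acid uptake, binding and activation only Fabp2 passed, the intestinal fatty acid binding protein gene, below background at 4.32 and 4.65 in STEE30-M and 3.44 and 3.21 in Ctrl-M. Of 38 genes of triglyceride synthesis, lipid droplets and lipolysis 2 were higher, Dgat2 and the gastric lipase gene Lipf, of which Lipf was below background. None of 42 genes of cholesterol and fatty acid synthesis passed, and their median difference was 0.02. Of 50 genes of prostaglandin, leukotriene and unsaturated fatty acid metabolism 1 passed, the phospholipase gene Pla2g12b, lower and below background. The 7 measured fatty acid genes that the study names were all below background, and Fabp2 was the 1 that passed among them.

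Glycolysis and glycogen had 3 calls among 41 genes (7.32%, against 3.99% of all genes), all lower in STEE30-M. Pfkfb1, an isoform of the enzyme that sets the level of fructose 2,6-bisphosphate, was above background and read 6.18 and 6.59 in STEE30-M and 6.88 and 6.94 in Ctrl-M (difference -0.53, SE 0.22). Pklr, the pyruvate kinase of liver and red cells, and Phkg1, the catalytic subunit of phosphorylase kinase of muscle, were below background, at 3.98 and 4.08 in STEE30-M against 4.44 and 4.62 in Ctrl-M for Pklr, and at 4.67 and 4.73 in STEE30-M against 5.43 and 5.02 in Ctrl-M for Phkg1. No overlap was seen in any of the 3. The median difference of the list was -0.02. In insulin and IGF signalling 1 of 33 passed, Igfbp1, an insulin-repressed binding protein of liver that was below background. It read 4.73 and 5.05 in STEE30-M and 3.92 and 3.79 in Ctrl-M (difference 1.04, SE 0.22).

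The responses to oxidants and foreign compounds were mixed. Of 41 genes of the NRF2 response 2 were higher and 1 lower (7.32%, against 3.99% of all genes). Gstm3, a glutathione transferase, read 5.91 and 6.57 in STEE30-M and 5.56 and 5.43 in Ctrl-M (difference 0.75, SE 0.26). Mafg (chr11:120625117-120634955), a small Maf protein that pairs with NRF2 on DNA, read 7.71 and 7.46 in STEE30-M and 6.74 and 7.13 in Ctrl-M (difference 0.65, SE 0.23), while its relative Maff was lower and below background. Gclm, the modifier subunit of the enzyme that starts glutathione synthesis, read 11.53 and 11.52 in STEE30-M and 11.30 and 11.02 in Ctrl-M and did not pass. Nqo1, a quinone reductase and common marker of the response, read 7.65 and 8.25 in STEE30-M and 8.16 and 8.35 in Ctrl-M, with overlap. Gclm and Nqo1 were picked after their values were seen. Of 31 genes of the aryl hydrocarbon receptor and of xenobiotic metabolism 2 were higher and 1 lower (9.68%, against the same 3.99%). Abcb1a (chr5:8567091-8748575), a P-glycoprotein that pumps drugs out of cells, read 6.02 and 5.90 in STEE30-M and 5.35 and 5.39 in Ctrl-M (difference 0.59, SE 0.23). Cyp3a11, a liver cytochrome P450, and Fmo5, a monooxygenase, were below background, at 4.72 and 5.36 in STEE30-M against 4.20 and 4.31 in Ctrl-M for Cyp3a11, and at 4.39 and 4.32 in STEE30-M against 4.91 and 5.12 in Ctrl-M for Fmo5.

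Among the stress responses, none of 45 genes of ATF4 and the unfolded protein response passed. Of 32 heat shock genes 1 passed, the testis isoform gene Hspa1l below background, whereas Hspb1, the abundant small heat shock protein of muscle, read 12.85 and 13.47 in STEE30-M and 12.78 and 12.70 in Ctrl-M (difference 0.42). Of 30 hypoxia and HIF-1 target genes 2 passed (6.67%, against 3.99% of all genes). The carbonic anhydrase gene Car9 was higher and Hif3a, an inhibitory HIF subunit, lower, both below background. Of 27 clock genes Npas2, a partner of BMAL1, was lower at 5.38 and 5.10 in STEE30-M against 5.97 and 5.69 in Ctrl-M. Of 50 autophagy genes Atg4d, a protease that processes LC3-type proteins, was lower at 5.26 and 5.45 in STEE30-M against 5.80 and 5.91 in Ctrl-M. Of 45 immediate early genes Maff was the 1 call.

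Signalling pathways gave scattered calls. In the MAP kinase list 1 of 75 passed, Spry4 (chr18:38586247-38601347), a feedback inhibitor of receptor tyrosine kinase signalling that ERK activity induces. It read 7.16 and 7.37 in STEE30-M and 6.67 and 6.46 in Ctrl-M (difference 0.70, SE 0.23), without overlap. None of 56 cAMP genes passed. Akap1, which anchors protein kinase A at the mitochondrial outer membrane, came nearest at 9.36 and 9.45 in STEE30-M and 9.0 and 8.91 in Ctrl-M (difference 0.45). In the Notch pathway the receptor gene Notch3 was higher, at 7.84 and 7.12 in STEE30-M and 6.57 and 6.95 in Ctrl-M (difference 0.72, SE 0.28), and Hes7, a bHLH repressor known from somite formation, was lower, at 6.27 and 6.00 in STEE30-M and 6.56 and 6.82 in Ctrl-M (difference -0.56, SE 0.22). Of 66 genes of the Wnt pathway 3 passed (4.55%, close to the 3.99% of all genes), all lower. Axin2, a scaffold of β-catenin destruction and itself a target of the pathway, read 5.66 and 5.59 in STEE30-M and 6.33 and 6.11 in Ctrl-M, and Ror2, a receptor for Wnt5a, read 5.13 and 5.05 in STEE30-M and 5.49 and 6.04 in Ctrl-M. The ligand gene Wnt5a, below background, read 4.70 and 3.79 in STEE30-M and 5.08 and 4.85 in Ctrl-M. The median difference over the 66 was -0.02. In myostatin, activin and BMP signalling 1 of 32 passed, the ligand gene Bmp6, lower and below background.

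Ion channels were mostly under the background level in these cells, and so were their calls. At or below that level 6.25% of all probe sets passed. Of 95 potassium channel genes 18 were above background and 3 passed (3.16%, against 3.99% of all genes). Kcnt2 and Kcnh8 were lower and Kcnh7 higher, all below background. Of 79 sodium and calcium channel genes 28 were above background and 3 passed (3.80%), all lower. The sperm channel gene Catsper2 was above background, at 5.92 and 5.71 in STEE30-M and 7.08 and 6.46 in Ctrl-M. Trpm5 and Cacng5 were not. Of 67 ligand-gated channel genes 1 passed (1.49%), the GABA receptor gene Gabrg3, lower and below background. The sodium-potassium pump, which keeps the resting potential, had 2 of 14 higher (14.3%). Among them was Fxyd2, a small regulatory subunit of kidney that was below background.

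Genes of inflammation were dim in myotubes, and few passed. Of 28 inflammasome genes 2 passed (7.14%, against 3.99% of all genes), both lower and above background. Casp1, the protease that matures interleukin-1β, read 5.70 and 5.19 in STEE30-M and 6.10 and 6.12 in Ctrl-M (difference -0.67, SE 0.28), and Aim2, a sensor of cytosolic DNA, read 5.56 and 5.67 in STEE30-M and 6.32 and 6.02 in Ctrl-M (difference -0.56, SE 0.24). Neither overlapped. Of 79 interleukin and interleukin receptor genes 4 passed (5.06%), Il21 and Il18r1 higher and Il22ra2 and Il2ra lower, all below background. The share was 4.65% for TNF ligands and receptors, 5.08% for chemokine, 2.0% for interferon-stimulated and 5.26% for complement genes. The 3.99% of all genes is not matched for brightness, and 6.25% of all probe sets at or below background passed. Among 43 TNF ligands and receptors the ligand gene Cd40lg was higher and the death ligand gene Tnfsf10 lower, both below background. Among 59 chemokine genes the receptor genes Cxcr6 and Ccr4 were higher and below background, and the neutrophil attractant gene Cxcl3 was lower at 4.65 and 5.29 in STEE30-M and 5.53 and 5.92 in Ctrl-M. Of 50 interferon-stimulated genes Ifi44 was lower at 5.84 and 5.58 in STEE30-M and 6.13 and 6.29 in Ctrl-M. Of 38 complement genes Mbl1, a mannose-binding lectin, and Serping1, the C1 inhibitor, were higher, both below background on average. Of the 20 cytokine and complement genes that the study names, 2 were lower (Il22ra2 and Tnfsf10), 14 had a negative difference and the median was -0.24. That list was chosen on these samples and is not independent evidence of its direction, and 3 of its 20 genes were above background.

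Collagens had 1 call in 43, Col6a5, lower and below background, but 28 of 43 had a negative difference. Without overlap 15 lay below Ctrl-M and 7 above it, where over all probe sets 15.8% lay below and 14.5% above. The median difference was -0.12, the lowest of the 50 theme lists, beside -0.01 over all genes. Col12a1, a fibril-associated collagen, read 12.68 and 11.91 in STEE30-M and 12.95 and 12.79 in Ctrl-M, and Col6a2, a chain of the microfibrils around muscle fibres that was picked after its values were seen, read 9.47 and 8.74 in STEE30-M and 9.48 and 9.59 in Ctrl-M. In each the second STEE30-M array held most of the difference, and the mean of the whole list was 7.07 and 6.87 in STEE30-M and 7.05 and 7.08 in Ctrl-M. None of 38 integrin and laminin genes passed.

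The machinery that makes and removes protein, and that of division, had no calls. None passed of 64 cytosolic ribosomal proteins, 43 proteasome genes and 64 genes of the cell cycle and DNA replication. Their list means were over 10 on each array, and between 10 and 12 only 0.398% of all probe sets passed. Of the 64 ribosomal protein genes 49 had a positive difference and 12 a negative one, and the median was 0.06. Without overlap 13 lay above Ctrl-M and none below it, where over all probe sets 14.5% lay above and 15.8% below. Their mean was 15.27 and 15.51 in STEE30-M and 15.23 and 15.40 in Ctrl-M, so the groups overlapped as a whole.

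Over whole lists, replicates often lay further apart than the groups. The gap between the STEE30-M array means exceeded the difference between the groups in 42 of the 50 theme lists, and the gap between the Ctrl-M array means did so in 33. The median gap was 0.10 in STEE30-M and 0.06 in Ctrl-M, and in 45 of the 50 lists the array means of the groups overlapped. The sarcomere list is an example, at 12.18 and 12.56 in STEE30-M and 12.24 and 12.43 in Ctrl-M, and complex I another, at 11.29 and 11.66 in STEE30-M and 11.41 and 11.57 in Ctrl-M. The cell cycle list ran the other way, at 10.96 and 10.73 in STEE30-M and 10.87 and 10.82 in Ctrl-M. Means without overlap were found in 5 lists, with triglyceride synthesis, xenobiotic metabolism and the Notch pathway higher and the Wnt pathway and TNF ligands and receptors lower in STEE30-M. All mean differences in the 50 lists were between -0.10 and 0.11. Together the lists held 2043 genes, of which 26 were higher and 33 lower (2.89%), against 3.99% of all genes. These shares are not matched for brightness. Of the 1398 list genes above background 1.79% passed, against 2.28% of all probe sets above background.

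**Figure D5:**
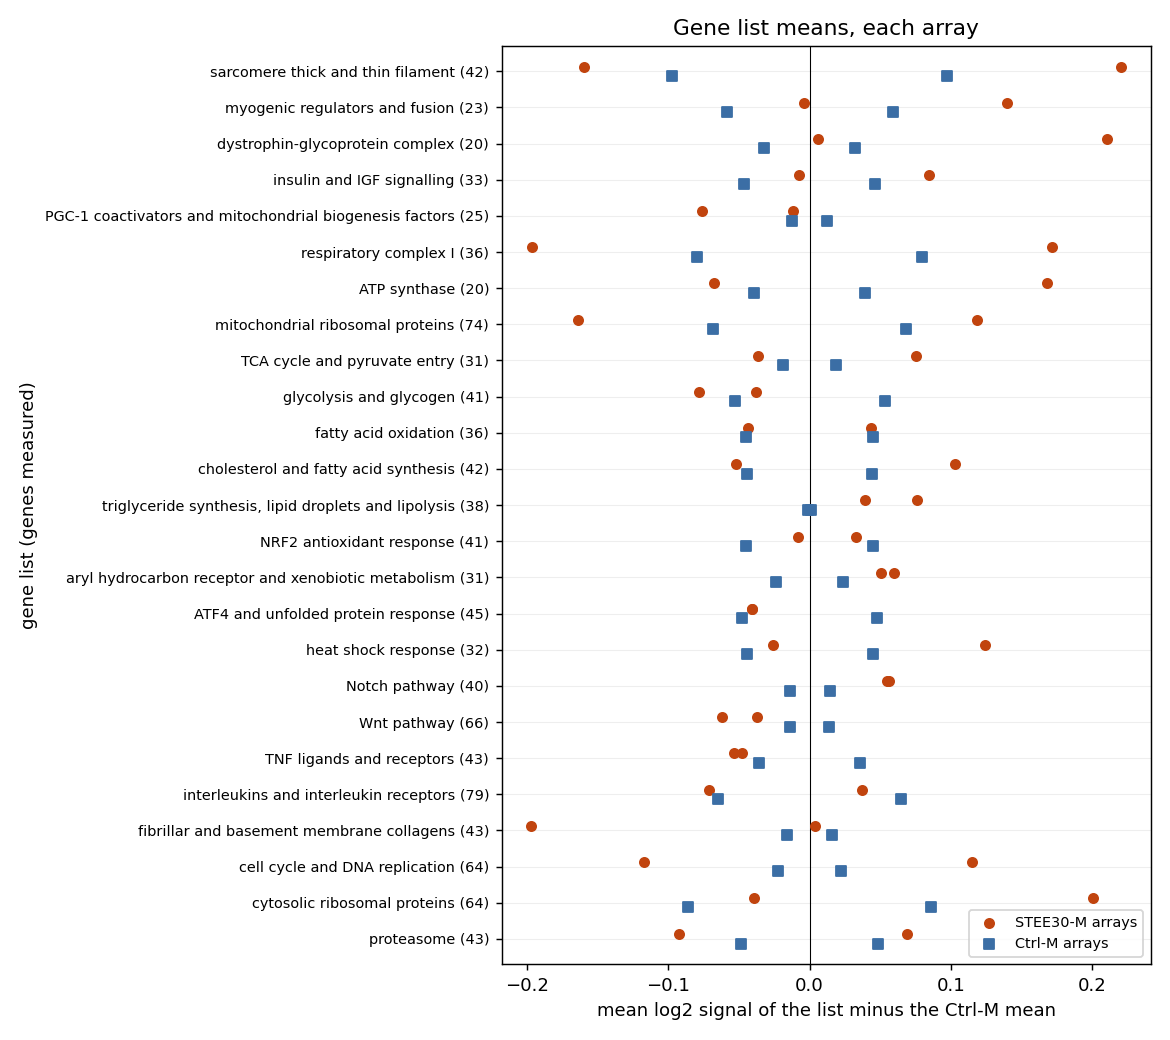
Mean log2 signal of 25 gene lists on each STEE30-M array (circles, upper) and Ctrl-M array (squares, lower), less the Ctrl-M mean of the list (horizontal axis), with the number of genes measured in brackets. The STEE30-M arrays lie to either side of the Ctrl-M arrays in lists such as complex I, and all points lie within 0.25 of 0.

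Values at 50 µg/mL stood beside these for the same probe sets, with the same Ctrl-M arrays on the other side of both comparisons. Rev3l had a difference of -0.81 in STEE30-M and -0.05 in STEE50-M, Upf3b -0.61 and -0.06, Rhox10 -0.75 and 0.15, Serpinb6c -0.80 and -0.05, and Fam35a 0.67 and -0.12. For these the STEE50-M arrays read close to Ctrl-M, as with Rev3l at 9.31 and 9.24. Abcb1a had a difference of 0.59 in STEE30-M and -0.22 in STEE50-M, where its arrays read 4.93 and 5.38. Other genes had differences of one sign in both, among them Notch3 with 0.72 in STEE30-M and 1.10 in STEE50-M, Mafg with 0.65 and 0.67, Mterf4 with 0.64 and 0.72, and Pigc with -0.69 and -0.81. These genes were picked after their values were seen, and the difference between the concentrations was not tested here.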

How the data were processed

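Total RNA of 6 arrays was used, 2 each of STEE30-M, STEE50-M and Ctrl-M. The deposited log2 signals were made by the authors with SST-RMA in Expression Console 1.4.1.46 over all 6 arrays and have 2 decimals. The authors' log2 group averages were used for gene symbols and for 1 rescaling, since they lie on another scale (SD over probe sets 2.23, against 3.39 in the arrays). Sheets of the authors' own comparisons hold fold changes and p-values and were not used. Of 28846 rows, 6640 array controls were left out.

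In R 4.3.3 with limma 3.58.1, 3 group means were fitted to the 6 arrays and tested two-sided, with Benjamini-Hochberg adjustment over 22206 probe sets and no filter on signal. The methods word the fold minimum of 1.2 as a log2 change, and it was read as linear. They name a one-way ANOVA and do not say whether its variances were moderated. The test called the methods' unmoderated test is a reading of that wording. With 2 arrays against 2 no exact test can go below p = 0.333, and this number limits the precision. The brightest probe set stood for each of 21154 genes. Positions are those of RefSeq genes on GRCm38, matched by symbol. Named genes are the 15 higher and 15 lower with the largest moderated t above background and without overlap, per list up to 4 members of lowest p, and those the study names. The text says where others were picked, and 3 genes are not reported here. Members and lists were chosen with earlier results of these data known. Of the listed genes 68 had no probe set of their own. On simulated data for STEE30-M against Ctrl-M (22206 probe sets), a log2 change of 1 passed the thresholds in 90.6% and the adjusted threshold in 7.2%, a change of 2 in 99.7% and 87.5%, and no change passed the thresholds in 4.96%. The simulation drew the spread of every probe set from 1 common prior, whatever its signal, with independent noise. In the arrays the spread fell with signal, so these rates do not describe dim or bright probe sets apart. Alternatives covered normalization, variance prior, filters, thresholds, scale, the replicate block and left-out arrays.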

Additional observations from a re-analysis of the deposited data

How the results depend on the processing

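The count of 909 stayed within 1.5 times its value under quantile normalization of the 4 arrays (953), median centring (909), a fit of the 4 arrays alone (902), a variance prior that follows the signal (741), a robust prior (899), the methods' unmoderated test (724), the scale of the authors' averages (1055), a fold of at least 1.5 (686), the replicate block (920) and a fit without the chemosensory receptors (812). The unmoderated test shared 377 of the 909 and the scale of the authors' averages 619. Other settings moved the count. Fitted on probe sets above background alone, 381 passed (153 higher, 228 lower), and 3477 did not overlap. Above the 90th percentile level it was 446 (176 higher, 270 lower), with 3863 not overlapping. A fold of at least 2 left 73 (35 higher, 38 lower), an unadjusted p under 0.01 left 167 (78 higher, 89 lower), and a prior estimated with the array control rows, added after the data were seen, left 576 (272 higher, 304 lower). With 1 array left out, between 616 and 1503 passed (317 to 695 higher, 299 to 841 lower), 13135 to 15594 did not overlap, since fewer arrays have to be apart, and 317 to 485 of the 909 passed again. No alternative gave an adjusted p under 0.05.

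Of 133 named genes past the thresholds, none changed direction under any alternative, and 74 to 131 still passed under the other normalizations, priors, scale, block and the fit of 4 arrays, against 50 to 81 with 1 array of either group left out. That direction held was largely fixed in advance, since 905 of the 909 calls had groups without overlap. Leaving out an array or changing the prior or a threshold cannot reverse such a difference. List medians changed sign in 15 to 24 of 61 lists with 1 array left out and in 9 under median centring. Over all probe sets, deviations of same-numbered arrays correlated at 0.0228 for Ctrl-M and STEE30-M. The values were 0.0636 for Ctrl-M and STEE50-M and -0.0076 for STEE30-M and STEE50-M. They cannot decide whether the replicate numbers pair the samples, since a shared shift in some genes would hardly move them. Replicate 2 minus replicate 1 was 0.38 in STEE30-M and 0.19 in Ctrl-M for the sarcomere list. For the myogenic regulators it was 0.14 in STEE30-M and -0.12 in Ctrl-M. With the replicate block 785 of the 909 passed again and the count was 920. Where a group was left with 1 array, its spread was taken from the remaining groups.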

Other observations

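The array carries 5222 negative and 1324 positive control rows that no comparison used. In a fit over all 28846 rows, 621 negative control rows (11.9%) passed the thresholds for STEE30-M against Ctrl-M, 294 higher and 327 lower, beside 37 positive control rows (2.79%) and 576 gene probe sets (2.59%). The negative control rows had a median log2 signal of 4.79 and the positive ones of 10.30. This fit was added after the data were seen.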
